A study of Mus musculus with 10 samples.

Results

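The H19X locus on the mouse X chromosome holds 7 miRNA precursors, mmu-mir-322, mmu-mir-503, mmu-mir-351, mmu-mir-542, mmu-mir-450a-2, mmu-mir-450a-1 and mmu-mir-450b, and the long noncoding host transcript C430049B03Rik. These 8 features were taken out of 892 precursors in the small RNA tables and 18384 genes in the mRNA tables. The members were selected on the small RNA difference between IL-4 and control libraries for which the locus is known in this study, so their small RNA levels and folds are given below as a description, without a test. The host transcript was measured in other libraries and on another day, and its test is given, although it too was taken with earlier results of these data known.

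The cells were adipocyte precursors (APs) from subcutaneous white adipose tissue of C57BL/6J mice, isolated with magnetic beads by removal of CD45+ and CD31+ cells followed by selection of SCA-1+ cells, and cultured. CD45 marks blood cells and CD31 marks endothelial cells. Control APs were compared with APs given interleukin-4 (IL-4), a type 2 cytokine, in 2 control and 2 IL-4 small RNA libraries from day 2 and in 3 control and 3 IL-4 poly(A)-selected mRNA libraries from day 4. The small RNA replicates are called biological, while the mRNA libraries are called replicates without that word. How many animals stand behind each culture is not given in the sources used here, nor is the animals' age. The 4 small RNA libraries held 23790821 to 32061504 reads in mature miRNAs, and the 6 mRNA libraries summed to 28526782 to 29057787 expected counts.

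A miRNA begins as a hairpin within a long primary transcript. Drosha, with its partner Dgcr8, cuts the hairpin out in the nucleus, and Dicer cuts off the loop in the cytoplasm. The resulting duplex has a 5p and a 3p arm, of which Argonaute usually keeps one, and the kept arm pairs with messenger RNAs mainly through its seed, bases 2 to 8. Hairpins in a cluster can be cut from the same primary transcript, so that their primary level is shared and their mature levels need not be. The miR-15 family, to which miR-322-5p belongs by its seed, is known for repressing cell cycle genes such as those for D-type cyclins.

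The hairpins lay on the minus strand of chromosome X (mm10) and spanned 6353 bases. Of the 7, 3 lay in the host's last exon and 4 beyond its annotated end. Within exon 4 of C430049B03Rik (chrX:53053112-53057190) were mmu-mir-322 at chrX:53054255-53054349, mmu-mir-503 at chrX:53053984-53054054 and mmu-mir-351 at chrX:53053255-53053353. The hairpin of mmu-mir-542 at chrX:53049403-53049487 began 3625 bases beyond the 3′ end of the annotated host. The group of mmu-mir-450a-2 at chrX:53048299-53048367, mmu-mir-450a-1 at chrX:53048154-53048244 and mmu-mir-450b at chrX:53047997-53048078 began 4745 to 5034 bases beyond it.

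The 13 mature miRNAs of the locus had the same sequence in the deposited tables and in RefSeq. The following 10 are shown 5′ to 3′ with the seed in capitals. They are the leading arm of each precursor, both arms of mmu-mir-322 and mmu-mir-503, whose balance is described below, and the 3p pair with a shared seed.
miR-322-5p: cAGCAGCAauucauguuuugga
miR-322-3p: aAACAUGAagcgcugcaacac
miR-503-5p: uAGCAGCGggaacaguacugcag
miR-503-3p: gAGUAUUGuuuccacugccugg
miR-351-5p: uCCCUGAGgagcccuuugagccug
miR-542-3p: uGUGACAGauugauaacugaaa
miR-450a-5p: uUUUGCGAuguguuccuaauau
miR-450b-5p: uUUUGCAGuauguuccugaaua
miR-450a-1-3p: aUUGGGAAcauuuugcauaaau
miR-450b-3p: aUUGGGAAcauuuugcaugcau

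The seed of miR-322-5p was identical to that of miR-503-5p at 6 of 7 bases. That of miR-322-5p is also the seed of miR-15a, miR-15b, miR-16, miR-195a and miR-497a, while no other mouse miRNA in the tables had that of miR-503-5p. The seed of miR-351-5p is that of miR-125a-5p and miR-125b-5p, and of miR-6367, which had no reads. The 5p seeds of mir-450a and mir-450b were identical at 5 of 7 bases, and miR-450a-1-3p and miR-450b-3p had the same seed. Those 5p seeds, and the seed of miR-542-3p, were found in no other miRNA of the tables. For comparison with miR-322-5p and miR-351-5p, the most abundant relatives outside the locus are shown in the same way.
miR-16-5p: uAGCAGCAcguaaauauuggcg
miR-125b-5p: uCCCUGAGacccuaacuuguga

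Beyond the seed, miR-322-5p and miR-16-5p differed at 10 of the 22 bases compared from the 5′ end, and miR-351-5p and miR-125b-5p at 12 of 22. The hairpins of mmu-mir-322, mmu-mir-503 and mmu-mir-542 are shown with both mature arms in capitals because their arms were used differently, as described below.
mmu-mir-322: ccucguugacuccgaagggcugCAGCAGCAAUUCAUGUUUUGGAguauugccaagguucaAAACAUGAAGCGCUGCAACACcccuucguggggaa
mmu-mir-503: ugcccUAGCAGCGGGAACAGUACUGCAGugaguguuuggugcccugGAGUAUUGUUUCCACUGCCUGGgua
mmu-mir-542: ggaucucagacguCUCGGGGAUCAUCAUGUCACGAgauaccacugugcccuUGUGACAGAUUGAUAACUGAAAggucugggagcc

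All 7 precursors had more reads in both IL-4 libraries than in either control library on day 2, at 2.11 to 3.57 times the control level. Together the 13 mature miRNAs took 0.692% and 0.503% of all miRNA reads in control and 1.497% and 1.40% in IL-4 libraries. Their share was 0.597% ± 0.134 (SD, n = 2) in control and 1.45% ± 0.0651 (SD, n = 2) in IL-4 cultures, a ratio of 2.43. Counting error alone was small beside this, since the widest 95% Wilson interval of these shares was ± 0.00450 percentage points. Intervals of this kind cover counting error only, and not the spread between cultures. Reads were not tagged with molecular identifiers, so the intervals also take each read as a separate molecule.

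The precursors of the locus were far from equal in level. In both groups mmu-mir-351 and mmu-mir-322 made up most of the locus, holding 90.0% and 88.7% of its precursor reads in control and 85.8% and 87.6% in IL-4 libraries. The lowest precursor was mmu-mir-503, and the highest had 84.0 to 125 times its reads within a library. The hairpins of mmu-mir-322 and mmu-mir-503 lie next to each other in the same exon, yet mmu-mir-322 had 53.1 to 96.0 times the reads of mmu-mir-503. Levels between miRNAs also reflect how well each ligates into a library, and that part was not tested.

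Counts are given below after scaling to library sizes by the trimmed mean of M-values (TMM), per precursor and without regard to hairpin length. The values of mmu-mir-351 were 104640 and 88079 in control and 197930 and 208672 in IL-4 libraries, a log2 fold of 1.08 ± 0.20 (SE). This was the smallest fold of the 7 and the one with the smallest SE. For mmu-mir-322 the values were 80720 and 47266 in control and 188652 and 132682 in IL-4 libraries, a log2 fold of 1.33 ± 0.29 (SE). Here the control libraries differed 1.71-fold between themselves and the IL-4 libraries 1.42-fold, with the library numbered 1 higher in each group. The groups still did not overlap.

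The precursor mmu-mir-503, the least abundant, had 840.4 and 890.5 reads in control and 1984 and 2484 in IL-4 libraries, a log2 fold of 1.37 ± 0.21 (SE). Beyond the annotated host, mmu-mir-542 had 7311 and 6696 reads in control and 21981 and 16880 in IL-4 libraries, a log2 fold of 1.47 ± 0.22 (SE). The values of mmu-mir-450b were 6964 and 4865 in control and 25205 and 17054 in IL-4 libraries, a log2 fold of 1.84 ± 0.27 (SE). This was the largest fold of the 7, and it came with a 1.43-fold and a 1.48-fold difference between replicates. In none of the 7 did an IL-4 library reach down to a control library.

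The precursors mmu-mir-450a-1 and mmu-mir-450a-2 gave log2 folds of 1.38 and 1.37, both ± 0.22 (SE), but they are not separate measurements. Their 5p arms are the same miRNA, miR-450a-5p, and its reads were counted at both hairpins. Counts at mmu-mir-450a-1 were 2231 and 2587 in control and 7103 and 6915 in IL-4 libraries before scaling, and those at mmu-mir-450a-2 were 2215, 2556, 7032 and 6818. The 3p arms do tell the hairpins apart, and are described with the arms.

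**Figure D1:**
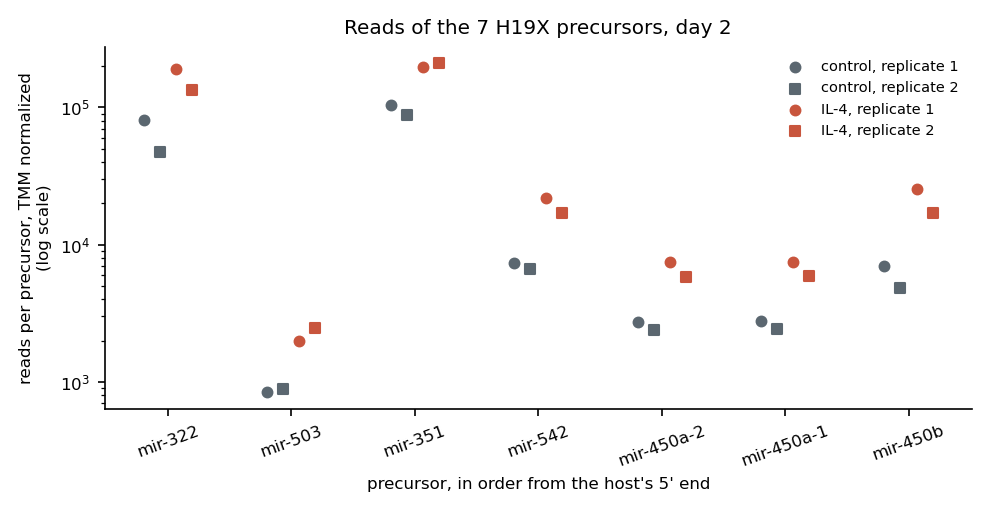
Reads of each precursor after TMM scaling (log axis) in each of the 4 small RNA libraries, with precursors in order along the locus. Both IL-4 libraries lie above both control libraries at all 7 precursors, and the level falls from mmu-mir-351 and mmu-mir-322 to mmu-mir-503 within the same exon.

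The median log2 fold of the 7 precursors was 1.37, against 0.02 over the 508 precursors tested. Of all tested precursors 17.9% had both IL-4 libraries above both control libraries, and 8.27% had a fold above 1.5, beside 7 of 7 members on both counts. As the members were selected on this contrast, nothing is read from these shares. Ranked by mean scaled count among the 508, mmu-mir-351 stood at 46 in control and 33 in IL-4 libraries, mmu-mir-322 at 59 and 39, and mmu-mir-503 at 226 and 164.

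Along the locus, the largest distance in log2 fold was that between mmu-mir-450b and mmu-mir-351, 0.76 with a combined SE of 0.34. Between the neighbours mmu-mir-322 and mmu-mir-503 the difference was 0.04 ± 0.36 (combined SE). Over the 7 hairpins, the Spearman correlation of log2 fold with distance from the host's 5′ end was 0.79 and the Pearson correlation 0.59, as a description of points that share the same 4 libraries and, for the mir-450a hairpins, the same reads.

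**Figure D2:**
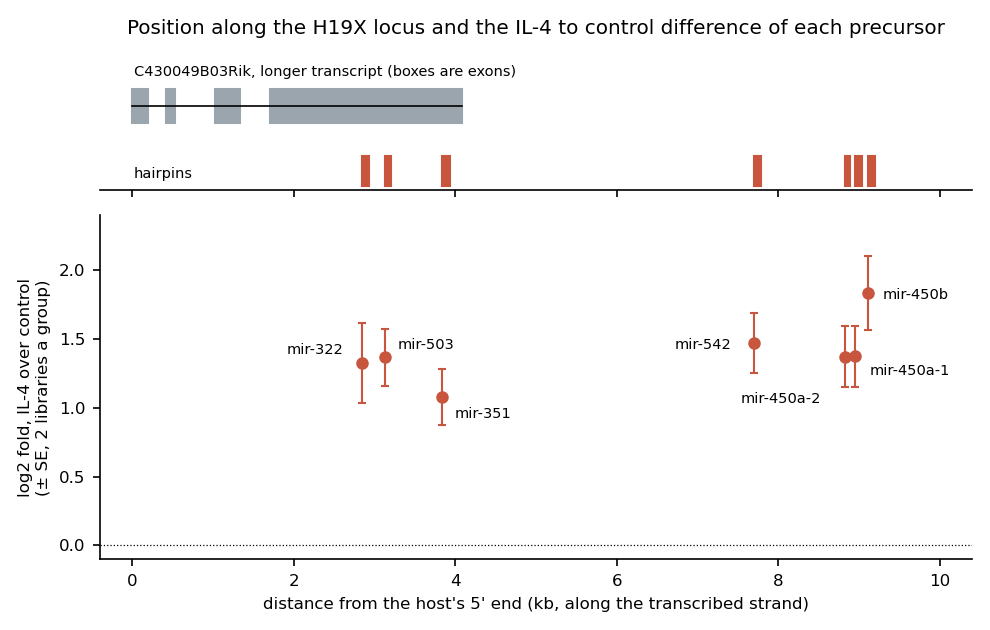
Top, exons of the longer annotated transcript of C430049B03Rik and the 7 hairpins, drawn to scale by distance from the host's 5′ end. Bottom, log2 fold of each precursor (± SE, 2 libraries a group), which lies between 1.08 for mmu-mir-351 and 1.84 for mmu-mir-450b.

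Other miRNA clusters were set beside the locus, as a description. The cluster with most tested precursors, mmu-mir-379 to mmu-mir-3072 on chromosome 12, is part of the imprinted Dlk1-Dio3 region. It had 35 precursors with a median log2 fold of 0.09 and a range of -0.50 to 0.61. The next clusters, mmu-mir-466f-1 to mmu-mir-466c-1 and mmu-mir-466b-2 to mmu-mir-297a-4 on chromosome 2, are runs of near-identical repeats whose reads can be shared. Their medians were -0.08 over 20 precursors and -0.12 over 19. The H19X range of 1.08 to 1.84 was above the highest precursor of each of these 3 clusters, at 0.61, 0.76 and 0.61. As the H19X members were selected on this contrast, nothing is read from this. Closer in size were mmu-mir-17 to mmu-mir-92a-1, with a median of 0.20 over 6 precursors, and mmu-mir-500 to mmu-mir-532 on chromosome X. The latter had a median of 0.32, a highest value of 0.70, and 4 of 5 precursors higher without overlap. Also on chromosome X, 305430 to 306069 bases from the H19X hairpins, 5 precursors of the mir-106a cluster were set beside the locus. There mmu-mir-92a-2 and mmu-mir-19b-2 had log2 folds of -0.15 ± 0.29 and 0.27 ± 0.67 (SE), with overlapping groups. Their mature miRNAs also come from a cluster on chromosome 14, so these values may belong to either. The precursors mmu-mir-106a, mmu-mir-18b and mmu-mir-20b had 1 to 7 reads in each library.

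Of the 13 mature miRNAs, all of which passed the filter on low counts, 12 had both IL-4 libraries above both control libraries, as had 18.4% of the 640 mature miRNAs tested. The exception was miR-450a-2-3p, with 11 and 4 reads in control and 21 and 16 in IL-4 libraries before scaling. Its log2 fold of 1.05 ± 0.69 (SE) rests on these few reads. The median log2 fold of the 13 was 1.30.

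The arms of mmu-mir-322 differed in how well replicates agreed. The values of miR-322-5p were 73949 and 37655 in control and 167104 and 107301 in IL-4 libraries, a log2 fold of 1.30 ± 0.37 (SE). The 3p arm, at lower counts, was nearly equal within groups, with 9833 and 9790 in control and 23171 and 20734 in IL-4 libraries, a log2 fold of 1.16 ± 0.20 (SE). The spread of mmu-mir-322 between replicates therefore lay in its 5p reads. Without the control library numbered 1 the log2 fold of miR-322-5p was 1.87, the highest of the values with 1 library left out, and the lowest was 0.92.

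The 5p arm of mmu-mir-503, miR-503-5p, had the largest fold of the mature miRNAs here. Its values were 233.2 and 157.5 in control and 760.4 and 657.0 in IL-4 libraries, a log2 fold of 1.86 ± 0.27 (SE). It stayed a minor miRNA in every library, at 0.315% to 0.612% of the reads of miR-322-5p. The 3p arm had 632.9 and 731.0 in control and 1219 and 1729 in IL-4 libraries, a log2 fold of 1.11 ± 0.25 (SE). In all 4 libraries the 3p arm had more reads than the 5p arm.

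The third exonic precursor, mmu-mir-351, was read almost entirely from miR-351-5p, with 108520 and 88342 in control and 199301 and 201097 in IL-4 libraries. The log2 fold of miR-351-5p was 1.02 ± 0.20 (SE). The rare miR-351-3p had 112.7 and 96.5 in control and 350.3 and 306.7 in IL-4 libraries, a log2 fold of 1.65 ± 0.24 (SE). Both arms were thus higher in both IL-4 libraries.

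In mmu-mir-542 the main arm was the 3p arm. The values of miR-542-3p were 7335 and 6446 in control and 21818 and 15855 in IL-4 libraries, a log2 fold of 1.45 ± 0.24 (SE). Its partner miR-542-5p had 251.1 and 273.7 in control and 353.5 and 436.6 in IL-4 libraries, and its log2 fold of 0.59 ± 0.23 (SE) was the smallest of the 13. The groups of miR-542-5p did not overlap.

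Of the mir-450 group, miR-450b-5p had 7090 and 4731 in control and 25130 and 16192 in IL-4 libraries, a log2 fold of 1.81 ± 0.31 (SE). Its partner miR-450b-3p had 139.7 and 150.9 in control and 293.7 and 263.9 in IL-4 libraries, a log2 fold of 0.94 ± 0.23 (SE). The shared miR-450a-5p had 2825 and 2394 in control and 7497 and 5594 in IL-4 libraries, a log2 fold of 1.33 ± 0.24 (SE). The 3p arm that belongs to mmu-mir-450a-1 alone had 33.3 and 30.9 in control and 85.4 and 88.8 in IL-4 libraries, a log2 fold of 1.44 ± 0.31 (SE). It was higher than the 3p arm of mmu-mir-450a-2 in each library.

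The balance of the arms was measured as log2((5p + 0.5)/(3p + 0.5)), which is above 0 where the 5p arm leads. It led in 5 precursors and the 3p arm in mmu-mir-503 and mmu-mir-542. The 5p arm held 99.8% to 99.9% of the arm reads of mmu-mir-351 and 79.4% to 88.3% of those of mmu-mir-322. In mmu-mir-503 it held 26.9% and 17.7% in control and 38.4% and 27.5% in IL-4 libraries. The 95% Wilson intervals of these 4 shares ran from 23.7% to 30.4%, 15.4% to 20.3%, 36.2% to 40.7% and 25.9% to 29.2%. Control library 1 and IL-4 library 2 therefore overlapped within counting error. In mmu-mir-542 the 5p arm held 3.31% and 4.07% in control and 1.59% and 2.68% in IL-4 libraries.

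The arm balance differed between IL-4 and control without overlap in 4 of the 7 precursors, as in 25.6% of the 273 precursors with both arms measured. It was higher in IL-4 libraries by 0.86 ± 0.41 (SE) in mmu-mir-450b and by 0.79 ± 0.47 in mmu-mir-503, and lower by -0.85 ± 0.41 in mmu-mir-542 and -0.61 ± 0.30 in mmu-mir-351. Single libraries moved 3 of these differences by more than 1.5 times. Without control library 2 the difference was 0.40 in mmu-mir-503 and 0.52 in mmu-mir-450b, and without IL-4 library 1 it was 0.43 in mmu-mir-503 and -0.47 in mmu-mir-542. In mmu-mir-322, mmu-mir-450a-1 and mmu-mir-450a-2 the groups overlapped, with differences of 0.18 ± 0.47, -0.11 ± 0.34 and 0.15 ± 0.62 (SE). The median absolute difference was 0.61 for the members and 0.27 over the 273. In mmu-mir-322 the ratio of 5p to 3p reads was 7.52 and 7.21 in the libraries numbered 1, and 3.85 and 5.18 in those numbered 2, so that the number separated the libraries and the treatment did not.

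**Figure D3:**
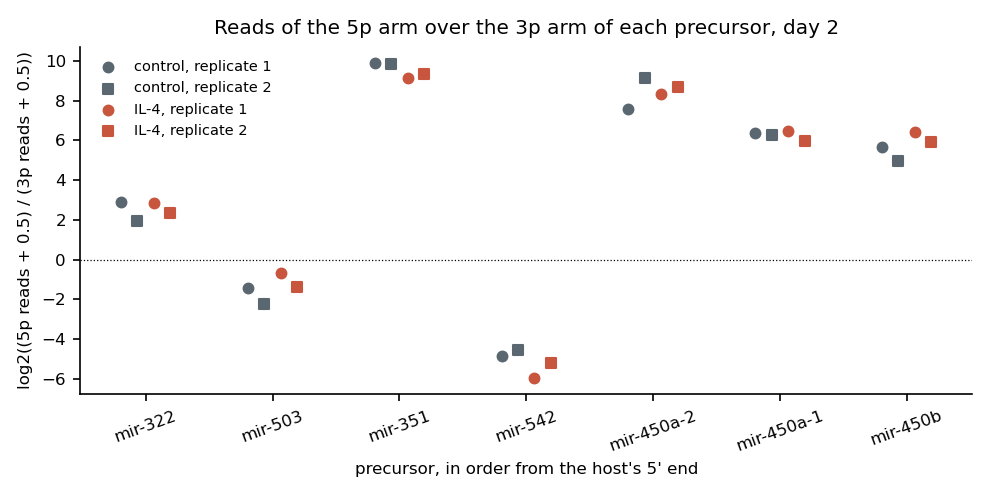
Log2 ratio of 5p to 3p reads (pseudocount 0.5) at each precursor in each of the 4 small RNA libraries; values above the dotted line at 0 mean more 5p reads. The 3p arm leads at mmu-mir-503 and mmu-mir-542 in all 4 libraries, and at mmu-mir-322 circles (libraries numbered 1) lie above squares (numbered 2).

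Reads outside both arms were rare at every hairpin. They came to at most 1.12% of the reads of mmu-mir-503 and to at most 0.0578% of those of the other 6. The counts at these precursors were thus almost wholly mature miRNA.

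By seed, miR-322-5p adds to a family whose main member lies outside the locus. Its share of the reads with this seed was 10.04% and 7.95% in control and 23.5% and 17.5% in IL-4 libraries. The most abundant relative, miR-16-5p, held 83.0% and 84.8% in control and 69.9% and 76.4% in IL-4 libraries. The level of miR-16-5p gave a log2 fold of -0.07 ± 0.25 (SE), with an adjusted p of 0.99 in edgeR's quasi-likelihood test over the 640 mature miRNAs. The family as a whole took 2.42% and 1.58% of all miRNA reads in control and 2.38% and 2.32% in IL-4 libraries. Its IL-4 values thus lay below 1 control library and above the other.

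For the seed of miR-351-5p the part from the locus was also larger in IL-4 libraries, but here the relatives outside the locus took less. This miRNA held 15.6% and 17.4% of the reads with its seed in control and 37.0% and 37.5% in IL-4 libraries. Its relative miR-125b-5p, held 48.5% and 44.4% in control and 42.0% and 34.0% in IL-4 libraries. The other relative, miR-125a-5p, held 35.9% and 38.2% in control and 20.9% and 28.4% in IL-4 libraries. The log2 folds were -0.46 ± 0.26 for miR-125b-5p and -0.74 ± 0.24 (SE) for miR-125a-5p, with adjusted p of 0.86 and 0.59 in the same edgeR test. Neither passed. The family total was 2.28% and 1.69% of all miRNA reads in control and 1.80% and 2.03% in IL-4 libraries, so its groups overlapped.

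The other seeds were read from the locus alone, apart from 1 read of miR-6966-5p, which shares the seed of miR-542-5p. For miR-503-5p the share of all miRNA reads was 0.000765% and 0.000525% in control and 0.00255% and 0.00249% in IL-4 libraries. In the pair with a shared seed, miR-450b-3p held 80.7% and 83.0% of the reads in control and 77.5% and 74.8% in IL-4 libraries, and miR-450a-1-3p the rest. This pair took 0.000567% to 0.00134% of all miRNA reads.

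**Figure D4:**
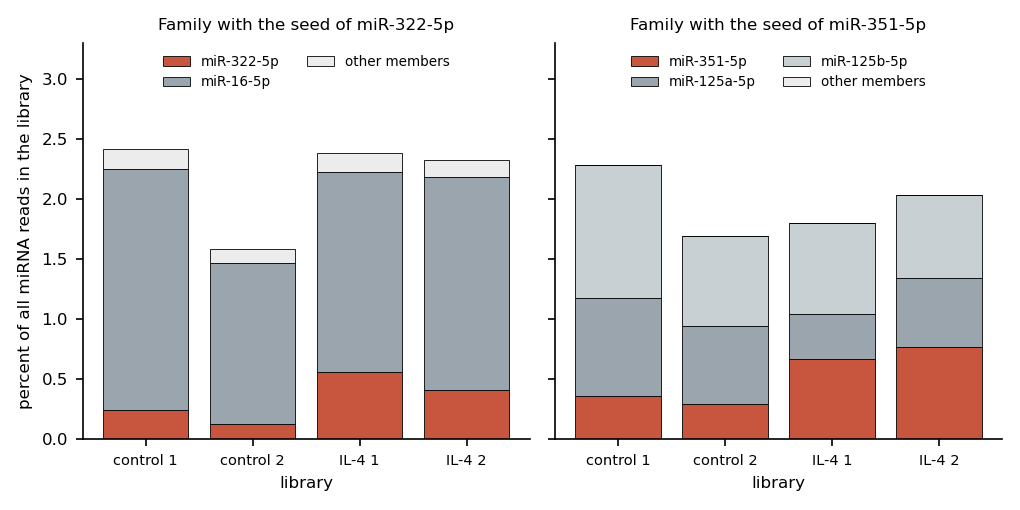
Share of all miRNA reads (percent, bars from 0) taken by the miRNAs with the seed of miR-322-5p (left) and of miR-351-5p (right), in each small RNA library. The part from H19X (red) is larger in both IL-4 libraries, while the family totals of the groups overlap.

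On day 4 the host transcript C430049B03Rik rose with IL-4. Its level was 0.88, 1.09 and 1.16 FPKM (fragments per kilobase of transcript, scaled to the mapped fragments of the library) in control and 4.33, 3.88 and 5.27 FPKM in IL-4 libraries, or 1.04 ± 0.146 and 4.49 ± 0.709 (SD, n = 3). Every IL-4 library was above every control library. In expected counts these were 73, 90 and 97 against 361, 326 and 440. The log2 fold was 2.27 ± 0.15 (SE), with an adjusted p of 1.14e-05 in edgeR's quasi-likelihood test over 14009 genes, a 4.81-fold difference. Of all tested genes 19% rose at this threshold, and 264 genes had a higher log2 fold than the host. As the host was taken with earlier results of these data known, its test is no independent evidence.

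The host was a low transcript in control libraries and lay near the middle of the listed genes in IL-4 libraries. By FPKM, 27.9% to 29.7% of the genes listed above 0 lay below it in control libraries and 44.5% to 50.5% in IL-4 libraries. The annotation has a transcript of 2993 bases and a shorter one of 2707 bases, which differ in exon 3. From the gene length that was deposited for each library, which averages the transcripts by abundance, the longer made up 92.4%, 86.4% and 100% in control and 85.5%, 89.8% and 79.4% in IL-4 libraries. These shares overlapped between groups. Because of the poly(A) selection, these fragments count polyadenylated RNA and not the primary transcript as a whole. The annotated host ends before mmu-mir-542 and the mir-450 group, so its counts do not cover them.

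The host's fold of 4.81 on day 4 and the precursors' folds of 2.11 to 3.57 on day 2 come from different days, cultures and kinds of RNA, and are set side by side only.

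The mRNA libraries also differed in markers of other cells, and in bulk samples fewer cells of a type cannot be told apart from less RNA per cell. Over all 14009 genes 18.4% fell and 19% rose with IL-4. Of 9 macrophage markers 7 fell and Mrc1 rose, and Cd68 did not pass. Their summed level was 3023 to 3877 FPKM in control and 1201 to 1536 FPKM in IL-4 libraries, most of it from Lyz2, and Cx3cr1 was at 16.0 ± 1.76 and 0.0367 ± 0.0115 FPKM (SD, n = 3). Ptprc, the gene for the CD45 used to remove blood cells, was at 18.3 ± 1.16 and 8.22 ± 0.242 FPKM. Of 8 AP markers 6 rose, among them Ly6a, which encodes SCA-1, at 120 ± 11.7 and 245 ± 40.4 FPKM, and Lum fell. Of 4 endothelial markers Cdh5 fell and Tek rose, with a summed level of 10.3 to 11.0 and 8.33 to 9.37 FPKM. The lymphocyte and mature adipocyte markers summed to at most 0.13 and 0.41 FPKM. The part of these cells in the host's difference was not tested.

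In the small RNA libraries of day 2 the blood cell miRNAs, which such cells express strongly, were near 0. Counts of miR-223-3p were 1 and 3 in control and 0 and 0 in IL-4 libraries, and those of miR-142a-3p were 1, 0, 2 and 1. The values of miR-142a-5p were 8 and 22 in control and 20 and 20 in IL-4 libraries, and those of miR-150-5p were 12, 12, 10 and 8. The endothelial miR-126a-5p took 0.0139% to 0.0211% of all miRNA reads, with overlapping groups, and the scaled counts of miR-126a-3p were 677.8 and 466.7 in control and 424.0 and 416.1 in IL-4 libraries.

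Genes beside the locus had log2 folds between -0.35 and 0.35, against 2.27 for the host. Of 27 annotated genes within 500000 bases of the hairpins 7 were listed in the mRNA tables, and 5 passed the filter on low counts. The nearest of these 5, Hprt, which encodes a purine salvage enzyme and lies 26337 bases away, fell by 0.29 ± 0.09 on the log2 scale (adjusted p = 0.037). Phf6, a chromatin-associated protein gene, fell by 0.35 ± 0.07 (adjusted p = 0.0047), and Mospd1 rose by 0.35 ± 0.08 (adjusted p = 0.0088). Gpc3, a glypican gene, and Fam122b gave 0.30 ± 0.11 and 0.06 ± 0.08 and did not pass (adjusted p = 0.069 and 0.62). The calls come from edgeR's test, and the call of Mospd1 was lost when libraries were scaled by their totals, which moved the median of all genes to -0.17. The call of Hprt was lost under upper-quartile scaling (adjusted p = 0.0503).

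**Figure D5:**
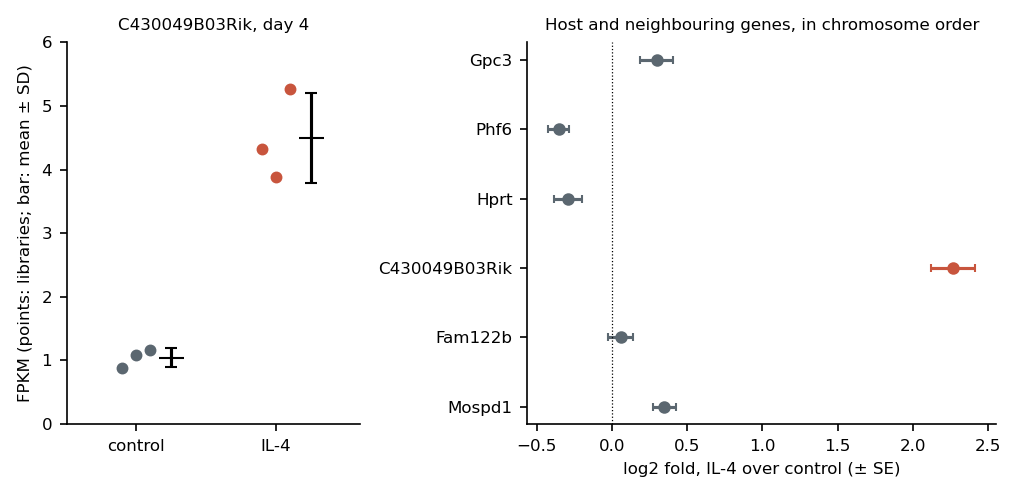
Left, FPKM of C430049B03Rik in the 3 control and 3 IL-4 mRNA libraries with mean ± SD. Right, log2 folds (± SE) of the host and of the 5 tested genes within 500000 bases, in chromosome order. The host lies at 2.27 and the neighbours lie between -0.35 and 0.35.

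Among genes whose products make or carry miRNAs, few were called on day 4 under TMM scaling. Of 20 genes in this list 18 were tested, of which Tarbp2 rose and Dgcr8 and Ran fell, with a median log2 fold of -0.12 against 0.0026 over all genes. Of all genes 18.4% fell and 19% rose. Dgcr8, the partner of Drosha, fell by 0.27 ± 0.08 on the log2 scale and Ran, which drives nuclear export, by 0.29 ± 0.09. Tarbp2, a partner of Dicer, rose by 0.37 ± 0.11. The adjusted p of these 3 were 0.033, 0.031 and 0.029 in edgeR's test. Drosha and Dicer1 gave 0.06 ± 0.09 and -0.19 ± 0.14 and did not pass. With library totals none of these genes rose and 9 fell. Among all 14009 genes 1704 were then higher and 4963 lower, so the count depends on the scaling. The call of Tarbp2 was also lost under upper-quartile scaling (adjusted p = 0.055 in edgeR's test).

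The study names Klf4, Cebpe and NF-kappaB as candidate factors at the start of the locus, and Ccnd1 and Fzd6 as targets of its miRNAs. For NF-kappaB, the genes of its subunits Nfkb1 and Rela were taken here. The study drew the factors from motifs in the sequence around the predicted start, and followed Klf4, which rose in its IL-4 samples. Its knockdown of Klf4 lowered primary transcripts of the locus. Ccnd1 and Fzd6 were picked from genes lowered by IL-4 in these samples, and in its experiments miRNA mimics lowered both. The rise of Klf4 and the fall of Ccnd1 and Fzd6 below are therefore no independent evidence. Klf4, a zinc finger factor, was at 16.2 ± 0.335 FPKM in control and 73.9 ± 5.14 FPKM in IL-4 libraries (SD, n = 3), a rise of 2.36 ± 0.06 on the log2 scale. Nfkb1 rose by 0.84 ± 0.06. Rela gave 0.02 ± 0.05 and did not pass. Cebpe was left out by the filter, with 4 to 16 expected counts in a library. Ccnd1, the gene for cyclin D1, was at 59.0 ± 2.98 and 22.3 ± 0.903 FPKM and fell by 1.23 ± 0.07 on the log2 scale. The Wnt receptor gene Fzd6 was at 1.36 ± 0.0971 and 0.453 ± 0.110 FPKM and fell by 1.41 ± 0.18. The adjusted p in edgeR's test were 1.64e-07 for Klf4, 2.16e-05 for Nfkb1, 5.31e-06 for Ccnd1 and 0.000552 for Fzd6. The expression of these genes was read on day 4 only.

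Of 10 cell cycle genes commonly assigned to the miR-15 seed, 7 fell and none rose, beside 18.4% of all 14009 genes that fell and 19% that rose. Their median log2 fold was -0.41, against 0.0026 over all genes. Beside Ccnd1 these were Ccnd3, Ccne1, Cdk6, Cdc25a, Chek1 and E2f7, which fell by 0.31 to 0.73 on the log2 scale, with adjusted p of at most 0.039 in edgeR's test. Ccnd2 gave -0.30 ± 0.12, E2f3 -0.24 ± 0.10 and Wee1 0.08 ± 0.07, and these did not pass. These genes were taken by their known role but with earlier results of these data known, and the study picked Ccnd1 from these samples. The count is therefore no independent evidence. No sites for the seed were searched for in these genes here, while the study reports predicted sites in Ccnd1.

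The 5 genes most like C430049B03Rik in log2 CPM over the 6 mRNA libraries were Map3k8, Adam15, Rcn1, Clec10a and Engase, with Pearson correlations of 0.9987 to 0.9992. All of them share the 6 libraries and are higher in the IL-4 group, which alone raises such a value. Their sizes differed widely, from a log2 fold of 0.27 for the metalloprotease gene Adam15 to 4.09 for Clec10a, which encodes a lectin of macrophages and dendritic cells. Map3k8, a kinase gene of the MAP kinase pathway, was at 2.21 ± 0.196 and 5.09 ± 0.391 FPKM (SD, n = 3).

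The 5 precursors outside the locus most like its summed reads over the 4 small RNA libraries were mmu-mir-147, mmu-mir-34a, mmu-mir-1197, mmu-mir-1264 and mmu-mir-299a, with Pearson correlations of 0.9998, 0.999, 0.996, 0.993 and 0.987. All 5 share the 4 libraries and are higher in the IL-4 group, which alone raises such a value. Of these mmu-mir-147, on chromosome 2, had 154.3 and 99.9 scaled reads in control and 469.0 and 370.6 in IL-4 libraries, a log2 fold of 1.73 ± 0.28 (SE). For mmu-mir-34a, a known target of p53, the values were 8098 and 7349 in control and 11331 and 10628 in IL-4 libraries. The precursor mmu-mir-1264 had 2 to 14 reads in a library.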

How the data were processed

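Small RNA reads were trimmed and aligned by the authors to the genome, to miRBase v21 hairpins and to Rfam 9.1, and the deposited counts per precursor and per arm came from the miRDeep2 quantifier. Reads that fit several hairpins were counted at each, so mature totals take each miRNA once. For mRNA, the authors deposited RSEM expected counts, FPKM and a gene length from Bowtie2 alignments, and the submitters' processing notes also name HISAT, StringTie and mm10. Expected counts were rounded to whole numbers. The members and gene lists were chosen with earlier results of these data known.

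Counts were tested with edgeR 4.0.16 (quasi-likelihood, TMM scaling, filterByExpr at a count of 10, Benjamini-Hochberg over all features tested) in R 4.3.3. Calls are at an adjusted p under 0.05. Arm ratios were fitted with limma 3.58.1 (pseudocount 0.5, at least 10 reads an arm). DESeq2 1.42.0 and limma on log2(FPKM + 1) were among the alternatives. Genes named are the members, neighbours within 500000 bases, the fixed lists, seed relatives with at least 5% of a family's reads and the 5 most correlated features. Clusters were precursors on the same strand with gaps of at most 10000 bases and at least 4 tested members. Of 892 hairpins 851 were placed at a single site of GRCm38.p6 (mm10), by identical sequence. The fits were tested on simulated data. From the mRNA data, 1 row without a gene name was dropped, at no more than 0.000225% of the counts, and 26 symbols turned into dates were restored from the gene ID.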

Additional observations from a re-analysis of the deposited data

How the results depend on the processing

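The host kept its direction and its call in all 12 alternatives, with log2 folds of 1.42 to 2.36. The 7 precursors and 13 mature miRNAs stayed above 0 in all 63 and 117 values, with log2 folds of 0.90 to 2.12 and 0.34 to 2.20. These members were selected on this contrast, and the groups did not overlap in 7 of 7 precursors and 12 of 13 mature miRNAs. Leaving out 1 library could therefore hardly turn their folds below 0, and nothing is read from the unchanged signs. The same holds for the direction of the host, whose groups did not overlap either. With 1 library left out, the precursors' median log2 fold was 1.19 to 1.54, the log2 ratio of the locus share 1.07 to 1.53 (highest without control library 1), the median of the mature miRNAs 1.10 to 1.505, the median arm difference 0.43 to 0.72, and the host 2.16 to 2.36. The log2 ratio of the locus's share of its seed family ran from 0.96 to 1.38 (miR-15 seed) and from 1.10 to 1.26 (miR-125 seed). The family totals themselves changed sign: the log2 ratio ran from -0.039 without control library 2 to 0.57 for the miR-15 seed, and from -0.25 to 0.18 for the miR-125 seed, above 0 without control library 1 (0.18) or IL-4 library 1 (0.03). Arm differences changed sign in mmu-mir-322 (-0.30 to 0.67, below 0 without control library 2 or IL-4 library 1, -0.056), mmu-mir-450a-1 (-0.35 to 0.13, above 0 without IL-4 library 2) and mmu-mir-450a-2 (-0.63 to 0.94, below 0 without control library 1 or IL-4 library 2, -0.016). The cause was not tested.

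Scaling by library totals, added after the data were seen, called 9 miRNA processing genes in place of 3, and 1704 genes higher and 4963 lower in place of 2663 and 2582, with the median of all genes at -0.17. Small RNA groups share the numbers 1 and 2, whose deviations correlated at 0.45, but nothing says what a number marks. With the number as a replicate block the precursors' median log2 fold was 1.36, the locus share 1.30 and the mature median 1.32. The arm difference stayed at 0.61, as it had to, since each number occurs once in each group. For the same reason this block could hardly move the folds, and nothing is read from their unchanged directions. With 2 libraries a group, folds of low arms such as miR-450a-2-3p are limited by depth.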
